A study of Mus musculus with 15 samples.

Results

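The lysosomal genes described here are 41 genes for the hydrolases inside the lysosome and the proteins of its membrane, of 55573 genes counted in the mouse trigeminal ganglion (TG). They were chosen by name, as the rows of the count table whose gene identifier maps to a listed symbol, and all 41 were found once. By role they comprise 7 lysosomal membrane proteins, 11 proteases, 11 glycosidases, 4 sulfatases, 6 lipid hydrolases and lipid carriers, progranulin (Grn) and the transcription factor TFEB (Tfeb). The mice were male CD1 animals, an outbred stock, bought at 10 weeks of age. In every group the centre of the right cornea was marked with a trephine, and its epithelium and anterior stroma were removed. The eye was then treated topically 3 times per day for 12 days, and the right TG, which holds the cell bodies of the sensory neurons that supply the cornea, was taken. By the labels, the groups differed in the treatment alone, which does not show that nothing else differed. Treatments were vehicle (replicates 1 to 5), the resolvin D6 standard (RvD6, replicates 6 to 10) or the resolvin D6 isomer (RvD6si, replicates 11 to 15). Each group had 5 TGs. RvD6 is a dihydroxy derivative of docosahexaenoic acid and RvD6si is a stereoisomer of it, and the dose given to these mice is not given in the sources used here. All mice carried the corneal injury, so the vehicle-treated TGs are not uninjured controls.

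Lysosomes are acidic organelles in which proteins, sugar chains and lipids delivered by endocytosis or autophagy are broken down by hydrolases with low pH optima. Most of the enzymes are soluble and reach the lysosome through mannose 6-phosphate receptors, while heavily glycosylated membrane proteins such as LAMP1 line the inside of its membrane and channels and carriers pass ions, lipids and breakdown products across it. TFEB and its relatives MITF and TFE3 bind the E-box core CACGTG in many of these genes' promoters and raise their transcription when nutrients are short. Inherited loss of single members, such as Hexa, Gaa, Npc1 or Cln3, causes storage diseases in which neurons are often the cells most affected, and macrophages are rich in the same enzymes.

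The 15 libraries held 4125962 to 9903396 counts assigned to genes, with a median of 7756538. Markers of 12 sensory neuron genes, 7 satellite glial genes and 7 myelinating Schwann cell genes were read in every sample, as the tissue label states. Some libraries also stood apart by markers of other cells. The summed level of 10 granulocyte precursor markers was 136 to 687 CPM (counts scaled to a common library size) in vehicle and 785 to 2526 in RvD6. It was 64.7 to 140.1 in RvD6si, apart from replicate 15 at 2206. Skeletal muscle markers summed to 1642 and 2312 CPM in RvD6 replicates 8 and 9, against 10.9 to 332 in the other 13 libraries, and sensory neuron markers were 6200 and 7477 CPM in RvD6 replicates 9 and 10, against 9519 to 13123 elsewhere. In whole tissue, fewer cells of a type and less RNA per cell cannot be told apart.

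The genes were, for the most part, well expressed in the TG. In vehicle-treated TGs the median level of the 41 genes was 19.5 RPKM (read counts scaled by exon length and library size), against 4.05 for the genes tested, and 33 of the 41 lay above the median gene and 12 in the top 10%. Psap, the precursor of the saposins that help lipid hydrolases reach their substrates, was the highest at 361 ± 26.0 RPKM (mean ± SD, n = 5). Cathepsin B (Ctsb, a cysteine protease) followed at 278 ± 19.7, Lamp1 at 263 ± 35.5 and cathepsin D (Ctsd, an aspartic protease) at 250.4 ± 29.7. The vehicle values of Ctsb, Lamp1 and Ctsd overlapped, with none above 294, and all 5 values of Psap, from 333 to 393, lay above them. The 5 genes of highest level took 46.9 to 54.6% of all counts on the 41.

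Levels differed widely within each role. Among the membrane proteins, Lamp1 was highest and Npc1, which exports cholesterol, lowest at 3.36 ± 0.55 RPKM. Proteases ran from Ctsb down to cathepsin H (Ctsh, mainly an aminopeptidase) at 3.35 ± 1.56. Among the glycosidases, Hexa (the alpha subunit of beta-hexosaminidase, which is deficient in Tay-Sachs disease) was highest at 69.7 ± 13.5, and Manba (beta-mannosidase) was lowest at 0.044 ± 0.059. Manba had 0 to 21 raw counts in the 15 libraries and was the single member left out of the tests by the filter on low counts. The sulfatases ranged from Ids, which acts on heparan and dermatan sulfate, at 30.5 ± 5.56 to Arsb at 0.74 ± 0.35, and the lipid group from Psap to acid sphingomyelinase (Smpd1) at 19.9 ± 1.81. Progranulin, which is cut into granulins in the lysosome, was at 44.3 ± 3.91, and Tfeb, the regulator, was low at 0.37 ± 0.17 RPKM. The median coefficient of variation between the vehicle-treated TGs was 18.3%. For 17 of the 41 genes some exon bases overlap another gene, in which reads were not counted, so their RPKM understates the level. The share of such bases was 39.9% for Arsb, 34.4% for Ctsd, 26.8% for Ctsl and 0% for Lgmn, Ctsk, Ctsh and Cd63.

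**Figure D1:**
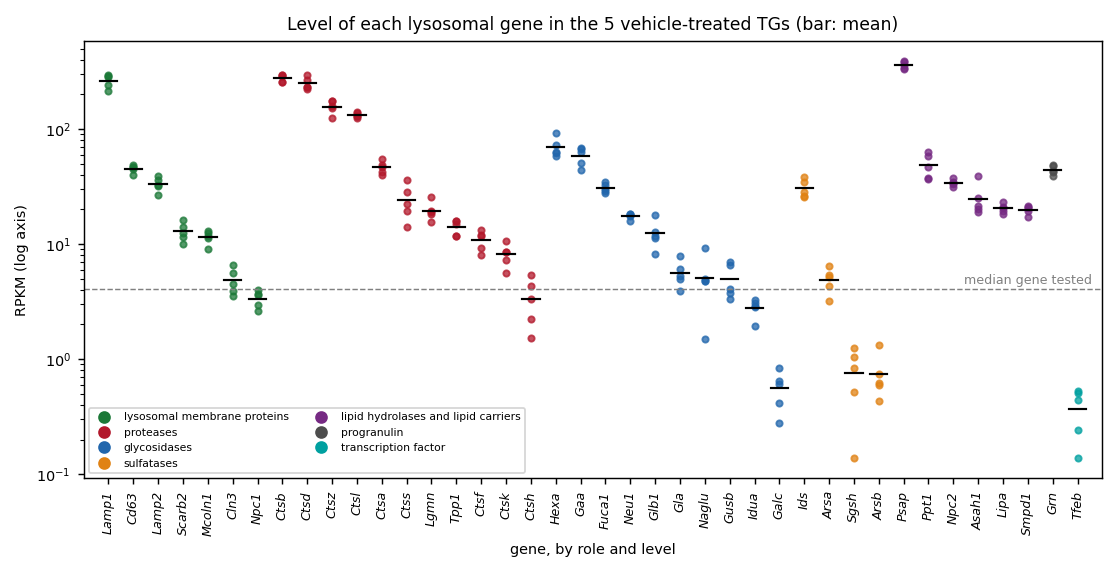
Level in RPKM (log axis) of 40 lysosomal genes in the 5 vehicle-treated TGs, grouped and coloured by role and sorted by mean. Points are single TGs, bars are means and the dashed line is the median gene tested (4.05 RPKM). Psap, Ctsb, Lamp1 and Ctsd are the highest, Tfeb is the lowest shown, and Manba, with no reads in some TGs, is left out.

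All members together took 0.724 to 0.808% of each library's counts in vehicle, 0.598 to 0.741% in RvD6 and 0.626 to 0.890% in RvD6si. The ranges of the 3 groups overlapped, and 3 of the 5 RvD6 libraries lay below all vehicle libraries.

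Many members share a promoter feature that the choice of genes did not use. The letters CACGTG, which read the same on both strands, occurred in the RefSeq promoter window (250 bases before to 50 after a gene start, GRCm38.p6) of 14 of the 37 members that have a window (37.8%), against 8.09% of 27025 genes with one and 10 of 47 other lysosomal pathway genes (21.3%). The longer TCACGTGA, which contains the shorter motif, occurred in 5 members (Mcoln1, Cln3, Ctsa, Ctsd and Gla, or 13.5%), against 1.12% of all genes. It occurred in 6 of the 47 other lysosomal pathway genes (12.8%), a share close to that of the members. A match of letters is a description and not a binding site. In the 5 members with TCACGTGA, the stretches that hold the motif overlap annotated exons. The exon bases were 32 of 32 in Ctsa, 74 of 74 in Cln3, 139 of 178 in Ctsd and 43 of 72 in Mcoln1. In Gla they were 74 of 79, in exons of another gene, Hnrnph2. The stretches shown overlap no annotated exon. Those of Lamp1, Gaa and Glb1 show the motif in the gene of a membrane protein and in glycosidase genes. Those of Lgmn and Ctsk, whose window had none, are given because these are the genes that passed the test below. Capitals mark CACGTG, and each runs 5′ to 3′ on the strand of its gene.
Lamp1 (chr8:13159080-13159160, plus strand, ending at the base before the RefSeq gene start): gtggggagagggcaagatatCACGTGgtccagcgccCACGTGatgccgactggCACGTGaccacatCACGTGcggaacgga
Gaa, acid alpha-glucosidase (chr11:119267803-119267848, plus strand): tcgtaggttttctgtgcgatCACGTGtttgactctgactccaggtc
Glb1, beta-galactosidase (chr9:114401010-114401055, plus strand): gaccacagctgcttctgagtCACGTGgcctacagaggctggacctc
Lgmn (chr12:102439116-102439161, minus strand): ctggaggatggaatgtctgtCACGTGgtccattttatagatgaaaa
Ctsk (chr3:95499130-95499209, plus strand, ending at the base before the RefSeq gene start): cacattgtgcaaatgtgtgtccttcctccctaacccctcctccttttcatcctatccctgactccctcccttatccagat
The Lamp1 promoter carries the motif 4 times, 61, 45, 28 and 15 bases before the gene start. The motif of Lgmn lies 49 bases before a RefSeq start that is inside the first intron of the transcript in the GENCODE annotation, and the window of its other RefSeq start held none. Among the 14 members with the motif the median log2 fold change was -0.11 for RvD6si and -0.22 for RvD6 against vehicle, with single genes from -0.41 to 1.17 and from -0.66 to 0.66. Among the 22 tested members whose windows lacked it, the medians were -0.0083 and -0.015, with single genes from -0.51 to 0.86 and from -0.67 to 1.16, so the ranges overlapped.

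The comparison of RvD6si with vehicle asked how the TG differed after treatment of the injured cornea with the isomer. Lgmn, which encodes legumain, the asparaginyl endopeptidase that cuts and activates cathepsins, was higher and was the single member called. It was 1 of 40 members tested (2.5%) past an adjusted p of 0.05 in edgeR's quasi-likelihood test, beside 0.67% of the 16567 genes tested. The normalized counts of Lgmn were 317, 319, 307, 423 and 261 in the vehicle-treated TGs (replicates 1 to 5). They were 1190.3, 478, 705, 666 and 629 in RvD6si (replicates 11 to 15). Every RvD6si value lay above every vehicle value, and replicate 11 was the highest of all 15. The log2 fold change was 1.17 ± 0.26 (SE), with a 95% interval of 0.62 to 1.71 and an edgeR adjusted p of 0.043. The call was kept on leaving out replicate 9, 10 or 12 and lost in the other 12 of the 15 fits that left out a single library, with an edgeR adjusted p of 0.054 to 0.145 in those, and the log2 fold change stayed between 0.93 and 1.29 in all 15. With replicates 8, 9 and 15 left out, Lgmn was again the single member called, at 1.23 with an edgeR adjusted p of 0.040. With the granulocyte precursor level as a covariate no member was called, Lgmn being at 1.14 with an edgeR adjusted p of 0.079. Lgmn in RvD6 (554, 473, 447, 834 and 289.9 in replicates 6 to 10) lay between the other groups, 4 of the 5 above every vehicle value, at a log2 fold change of 0.66 ± 0.26 and an edgeR adjusted p of 0.28. The direct difference of RvD6si from RvD6 was 0.51 with a 95% interval of -0.03 to 1.04, so a difference between the lipids in Lgmn was not shown, and the interval reaches more than 2-fold.

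Of the 40 members, 24 had a log2 fold change below 0 under RvD6si and 16 above, with a median of -0.064 beside 0.015 over all genes tested. At an unadjusted p of 0.05, 8 members were lower (20%, beside 7.3% of all genes) and 3 were higher (7.5%, beside 8.69%). The lower 8 were Cd63, Ctsa, Fuca1, Ctsl, Hexa, Neu1, Ctsz and Npc2, and none of them passed the adjusted test. The summed level of the 7 satellite glial markers was also lower in every treated library, at 4565 to 6544 CPM in RvD6si and 4947 to 6605 in RvD6 against 6745 to 8126 in vehicle. None of these 7 genes was called, their median log2 fold changes were 0.13 and 0.03, and their part in the lower members was not tested. Cd63, a tetraspanin of late endosomes, lysosomes and exosomes, had the lowest log2 fold change of the 40. Its normalized counts were 1180.2, 1061, 1232, 1273 and 1224 in vehicle. In RvD6si they were 645, 1090.3, 872, 777 and 832, of which 4 lay below every vehicle value. The log2 fold change was -0.51 ± 0.13, with an edgeR adjusted p of 0.078. Cd63 passed in 1 of the 15 fits that left out a single library, at 0.034 without replicate 12. In the other fits of this kind the edgeR adjusted p was up to 0.21. DESeq2 gave Cd63 an adjusted p of 0.0074.

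Fuca1, the alpha-L-fucosidase that trims fucose from glycoproteins, was the single member whose values all lay below those in vehicle. It read 646, 677, 774, 815 and 711 in vehicle and 445, 537, 622, 645 and 559 in RvD6si. The gap between the groups was narrow, the log2 fold change being -0.37 ± 0.15 with an edgeR adjusted p of 0.23. By this measure of separation 1 member was higher (Lgmn, 2.5%) and 1 lower (2.5%), beside 2.48 and 2.4% of all genes tested, so the members did not stand out. Cathepsin A (Ctsa), the carboxypeptidase that also protects beta-galactosidase and neuraminidase 1, read 1355, 1436, 1876, 1575 and 1649.8 in vehicle and 1079.7, 879, 1587, 1357 and 1027 in RvD6si. The groups overlapped, and its log2 fold change was -0.41 ± 0.17 with an edgeR adjusted p of 0.24.

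Sulfatases were on the other side: all 4 had log2 fold changes above 0 under RvD6si (median 0.58), and none passed the adjusted test. Arsb, arylsulfatase B, which removes sulfate from dermatan and chondroitin sulfate, had 18.7, 26.7, 32.1, 25.6 and 57.6 normalized counts in vehicle and 63.2, 44.7, 53.9, 67.2 and 63.4 in RvD6si. Vehicle replicate 5 lay within the range of RvD6si and the other 4 lay below it. The log2 fold change was 0.86 ± 0.33 with an edgeR adjusted p of 0.20. Arsa, arylsulfatase A, which acts on the myelin lipid sulfatide, was at 0.57 ± 0.26 with an edgeR adjusted p of 0.28.

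Tfeb read 18.02, 21.4, 5.62, 9.84 and 20.6 in vehicle, 25.8, 22.5, 25.2, 47.1 and 15.1 in RvD6 and 14.7, 30.4, 30.1, 9.31 and 50.4 in RvD6si. These were 7 to 38 raw counts a library, and the groups overlapped. The log2 fold change was 0.82 ± 0.53 under RvD6si and 0.82 ± 0.52 under RvD6, with 95% intervals of -0.28 to 1.92 and -0.28 to 1.93, which span 0 and reach more than 3-fold, so a change in Tfeb was not shown.

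With DESeq2, 2 of 38 members (5.26%) passed for RvD6si against vehicle, beside 7.72% of the genes it tested. They were Lgmn, at an adjusted p of 9.6e-04, and Cd63.

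**Figure D2:**
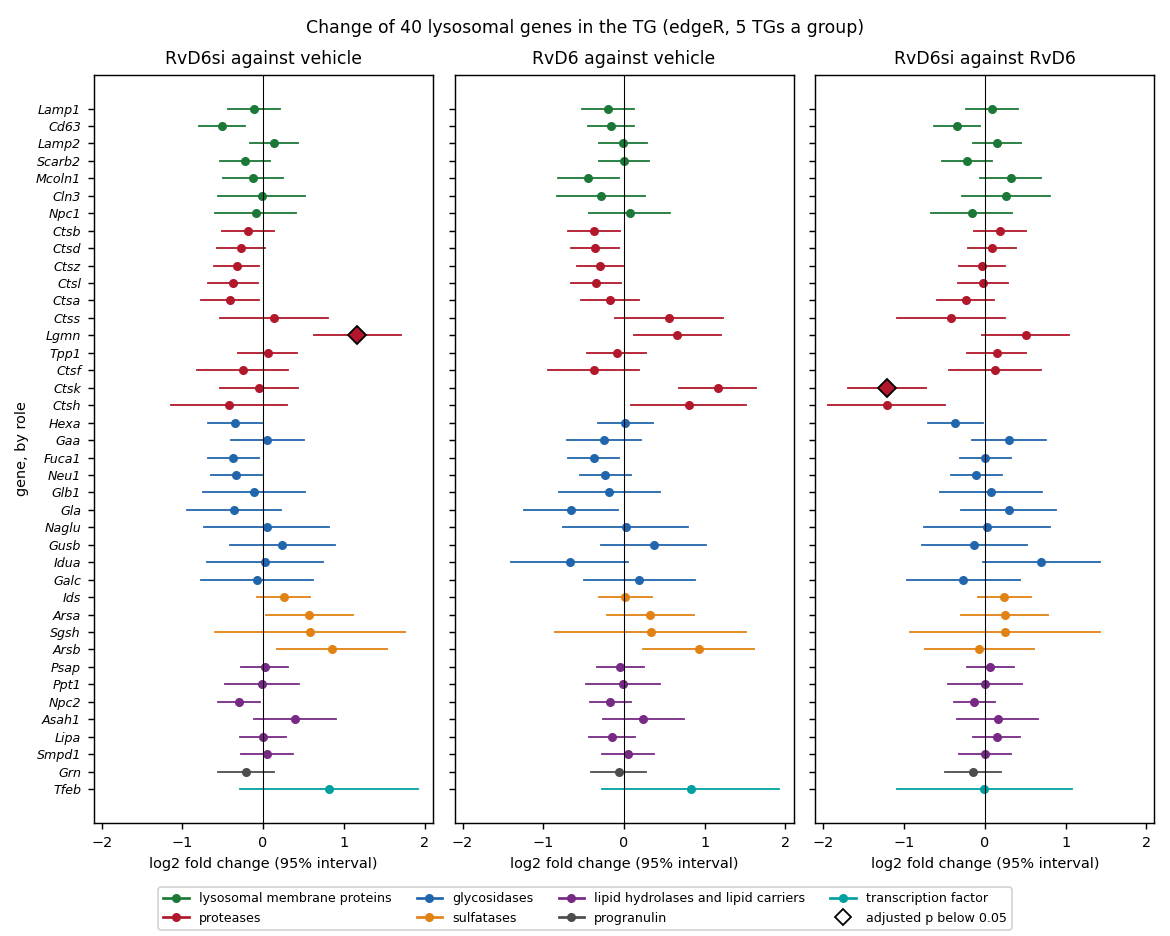
Log2 fold change (point) with its 95% interval (line) of the 40 lysosomal genes tested, in the comparisons of RvD6si with vehicle (left), of RvD6 with vehicle (middle) and of the lipids with each other (right), coloured by role. Diamonds mark an adjusted p below 0.05: Lgmn (1.17) in the left panel, none in the middle panel and Ctsk (-1.21) in the right panel.

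RvD6 against vehicle asked the same of the standard lipid, and here no member passed the adjusted test (0 of 40), as was the case for all genes tested (0%) in edgeR. Unadjusted, 4 members lay under a p of 0.05 on the higher side (10%, beside 7.63% of all genes) and 7 on the lower side (17.5%, beside 5.99%), and DESeq2 called 1 of 41 (2.44%), beside 1.9%. The median log2 fold change of the members was -0.057, beside 0.024 for all genes. The member furthest from vehicle was Ctsk, cathepsin K, a collagen-degrading protease that osteoclasts make in large amounts. Its normalized counts were 60.6, 92.5, 78.6, 116 and 92.9 in vehicle. In RvD6 they were 218, 259, 157, 146 and 212, each above every vehicle value. By that separation 1 member was higher (2.5%, beside 2.25% of all genes) and 0 lower (0%, beside 1.47%). The log2 fold change of Ctsk was 1.16 ± 0.23 with an edgeR adjusted p of 0.097, and it was the gene that DESeq2 called, at an adjusted p of 3.5e-04. Of the 15 fits that left out a single library, 1 passed, at an edgeR adjusted p of 0.042. It left out replicate 15, which is in neither group but informs the estimate of spread. In the other fits of this kind the edgeR adjusted p was up to 0.22. With replicates 8, 9 and 15 left out it was 0.034 at a log2 fold change of 1.36. With the granulocyte precursor level as a covariate the log2 fold change was 0.77 and the edgeR adjusted p 0.57.

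Of the other cathepsins, Ctsh had the largest log2 fold change under RvD6. It read 72.1, 48.9, 139, 106 and 175 normalized counts in vehicle and 177, 276, 104, 206 and 190.3 in RvD6. In RvD6, 4 of the 5 TGs exceeded every vehicle value and replicate 8 did not. The log2 fold change was 0.80 ± 0.34 with an edgeR adjusted p of 0.31. Arsb in RvD6 read 47.7, 67.6, 47.6, 85.5 and 60.4, again with vehicle replicate 5 inside the range, at 0.92 ± 0.33 and an edgeR adjusted p of 0.23.

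On the lower side were Idua, the alpha-L-iduronidase that is deficient in Hurler syndrome, Gla, the alpha-galactosidase A that is deficient in Fabry disease, and Mcoln1, the lysosomal cation channel TRPML1. Idua read 58.4, 87.2, 93.1, 98.4 and 85.5 in vehicle and 74.3, 31.5, 79.9, 59.5 and 22.1 in RvD6, with a log2 fold change of -0.67 ± 0.35 and an edgeR adjusted p of 0.41. Gla read 182, 124, 116, 142 and 92.1 in vehicle and 54.7, 126, 93.9, 48.3 and 97.6 in RvD6, at -0.66 ± 0.28 and an edgeR adjusted p of 0.32. For Mcoln1 the values were 696, 488, 613, 672 and 631 in vehicle and 499, 486, 558, 357 and 404 in RvD6, at -0.44 ± 0.18 and an edgeR adjusted p of 0.30. In each of these genes the RvD6 and vehicle samples overlapped. Replicate 9 was lowest or next to lowest in RvD6 for Gla and Mcoln1, and replicate 10 for Idua and Mcoln1. The abundant proteases Ctsb, Ctsd, Ctsl and Ctsz, with Fuca1, made up the lower 7 together with Gla and Mcoln1, at log2 fold changes from -0.38 to -0.29. Replicates 9 and 10, the libraries with the lowest sensory neuron markers (6200 and 7477 CPM), were the lowest in RvD6 for Ctsb (7226 and 8222 normalized counts), Ctsl (3616 and 4273) and Mcoln1, and replicate 9 was lowest for Ctsd (2442), Ctsz (1138) and Gla. The part of these markers in the lower values was not tested. Fuca1 in RvD6 read 458, 726, 478, 547 and 609, of which 4 were below every vehicle value.

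**Figure D3:**
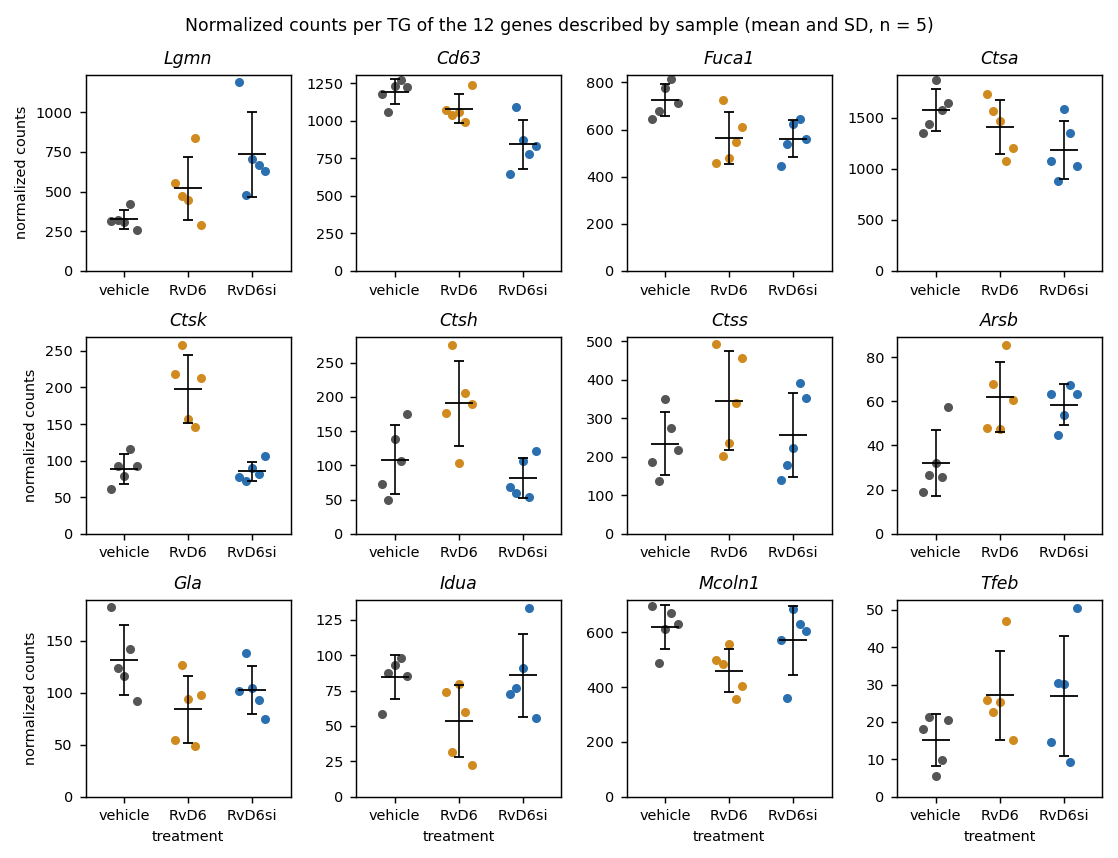
Normalized counts in each TG of the 12 lysosomal genes described by sample, by treatment, with points for single TGs and the mean and SD of each group (n = 5). All RvD6si points of Lgmn lie above vehicle, all RvD6 points of Ctsk lie above both other groups, all RvD6si points of Fuca1 lie below vehicle, and the groups overlap for the other genes against vehicle.

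Between the lipids the test was direct. They differ in stereochemistry and also in source. In the paper, RvD6si was isolated from tears and culture medium of injured mouse corneas, while the RvD6 standard was a gift. Source and stereochemistry cannot be told apart here. Ctsk was lower in RvD6si than in RvD6. It was the single member called of 40 (2.5%), beside 0.235% of all genes. Ctsk read 77.9, 71.9, 89.5, 81.7 and 106 normalized counts in RvD6si, against the RvD6 values of 146 to 259 above, and every RvD6si value lay below every RvD6 value. The log2 difference was -1.21 ± 0.23, with a 95% interval of -1.69 to -0.73 and an edgeR adjusted p of 0.035. RvD6si and vehicle differed by -0.05 in Ctsk, with an interval of -0.53 to 0.43. The call between the lipids was lost on leaving out any of replicates 6, 7, 8, 10, 11, 12, 13 and 14 (edgeR adjusted p 0.056 to 0.12), kept without replicate 15 at 0.019, and kept with replicates 8, 9 and 15 left out at 0.014.

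Values of other genes that osteoclasts express are given beside Ctsk. Of the 6 markers listed below, 3 passed the filter on low counts and were tested. None of those tested passed the adjusted test in any comparison. Acp5, the tartrate-resistant acid phosphatase of osteoclasts and a lysosomal enzyme itself, had 60.7 to 323 normalized counts in RvD6, 198 in RvD6si replicate 15 and 0.89 to 82.7 in the other 9 TGs. The list of 6 osteoclast markers was added after the values were seen. It does not hold Ctsk but holds Acp5, so its sum partly repeats the Acp5 values. The sum was 6.24 to 19.8 CPM in vehicle and 35.5 to 99.0 in RvD6. In RvD6si it was 4.95 to 11.6 apart from replicate 15 at 68.6. Of these 6, Ocstamp, Dcstamp, Oscar and Atp6v0d2 were at 0 in some libraries. Replicate 15 was the highest RvD6si library for Ctsk, at 106, and lay below all RvD6 libraries. Its granulocyte precursor markers lay within the range of the RvD6 libraries. This is a single library. In a fit with the granulocyte precursor level as a covariate, added after the data were seen, the log2 difference in Ctsk was -0.72 with an edgeR adjusted p of 1.00. The granulocyte precursor level separated the RvD6 libraries from the other groups in 14 of 15 libraries, so its part and that of the lipid cannot be told apart. Red blood cell markers, also added later, summed to 2379 to 5052 CPM in vehicle and 5720 to 10513 in RvD6. In RvD6si they were 935 to 2605 apart from replicate 15 at 11959. Bone matrix cell markers, added likewise, were 13.5 to 32.6 CPM in vehicle and 27.4 to 76.9 in RvD6. In RvD6si these were 16.5 to 24.0 apart from replicate 15 at 77.5. The 7 fibroblast markers, a list not added later, summed to 1399 to 1701 CPM in vehicle, 1408 to 2291 in RvD6 and 1213 to 1629 in RvD6si. Their median log2 fold change was 0.64 for RvD6 and 0.21 for RvD6si against vehicle, and -0.47 between the lipids. None of them was called. The part of the red blood cell, bone matrix cell or fibroblast list in the Ctsk values was not tested.

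**Figure D4:**
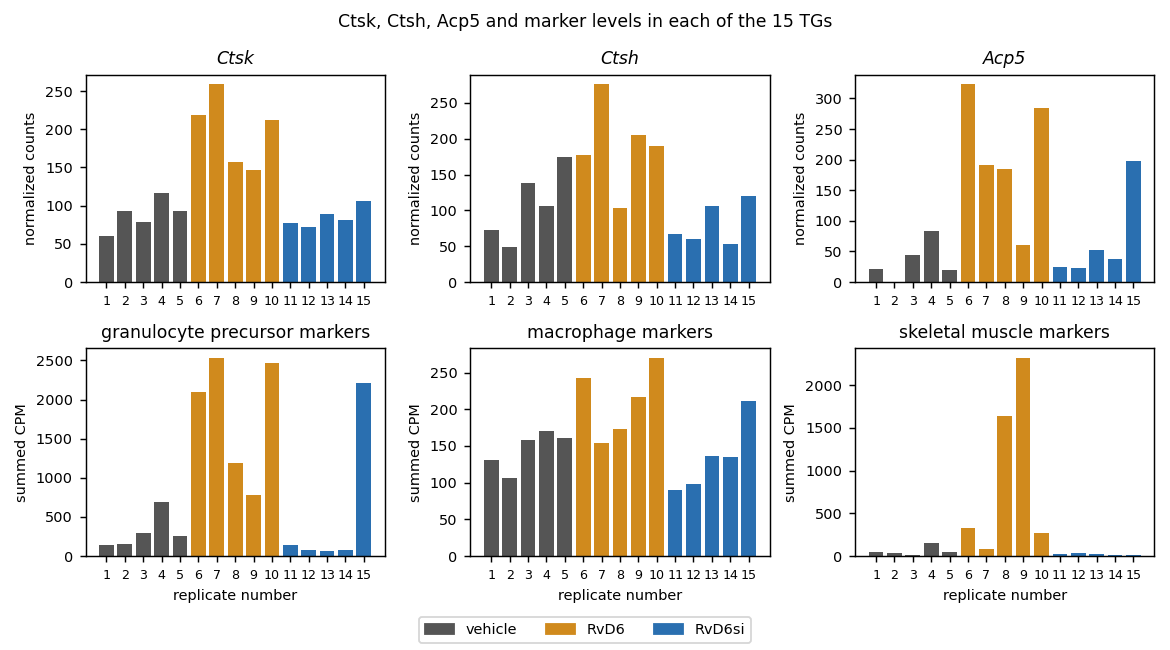
Normalized counts of Ctsk, Ctsh and Acp5 and summed CPM of the granulocyte precursor, macrophage and skeletal muscle markers in each of the 15 TGs, by replicate number and coloured by treatment. Ctsk, Acp5 and the granulocyte precursor markers have their highest values in RvD6 libraries, and RvD6si replicate 15 reaches the RvD6 range for Acp5 and the granulocyte precursor markers but not for Ctsk.

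Ctsh differed as much between the lipids as Ctsk but with more spread. It read 67.8, 59.9, 106, 53.8 and 120.3 in RvD6si against 104 to 276 in RvD6, and 3 of the 5 RvD6si values lay below all RvD6 values. Its log2 difference was -1.22 ± 0.34 with an edgeR adjusted p of 0.23, and DESeq2 gave it an adjusted p of 0.048. Ctss, cathepsin S, which trims the invariant chain of MHC class II in antigen-presenting cells, read 187, 137, 351, 274 and 219 in vehicle, 492, 203, 235, 339.6 and 457 in RvD6 and 140.0, 177, 223, 391 and 353 in RvD6si. Its groups overlapped widely, and the difference between the lipids was -0.42 ± 0.32 with an edgeR adjusted p of 0.75. Macrophage markers, 11 of 12 of which were read in every library, summed to 106 to 170 CPM in vehicle, 154 to 269 in RvD6 and 89.4 to 212 in RvD6si. Their part in the values of Ctsh and Ctss was not tested.

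On the other side, Idua was 0.70 ± 0.35 higher in RvD6si (72.3, 76.7, 91.3, 133 and 55.3 normalized counts) than in RvD6 on the log2 scale, with an edgeR adjusted p of 0.58. Mcoln1 read 573, 359, 685, 632 and 605 in RvD6si, at a difference of 0.32 ± 0.18 and an edgeR adjusted p of 0.64. Gla read 102, 138, 104, 93.1 and 74.8, at 0.30 ± 0.28. For none of these was a difference between the stereoisomers shown, and the 95% intervals, -0.03 to 1.42 for Idua, -0.06 to 0.69 for Mcoln1 and -0.29 to 0.89 for Gla, leave room for it. Over the members the median difference was 0.015, beside -0.0039 for all genes. At an unadjusted p of 0.05, 0 members were higher (0%, beside 4.18%) and 4 lower (10%, beside 4.64%), namely Ctsh, Ctsk, Hexa and Cd63. By separation of all samples, 0 were higher (0%, beside 0.652%) and 1 lower (2.5%, beside 1.09%), and DESeq2 called Ctsk and Ctsh, 2 of 41 (4.88%), beside 0.929%.

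The wider pathway was read through 62 further genes in 4 lists, of which 61 were tested. Under RvD6si, 1 of them was called higher and 0 lower, beside 0.67% of all genes tested called in either direction. This was Mfsd8, a lysosomal membrane protein (CLN7) whose loss causes a childhood neuronal ceroid lipofuscinosis. It read 69.2, 76.5, 57.0, 83.6 and 60.0 normalized counts in vehicle, 50.03, 83.8, 122, 136 and 151 in RvD6 and 181, 186, 176, 138 and 125 in RvD6si. All RvD6si values lay above vehicle, with a log2 fold change of 1.21 ± 0.27 and an edgeR adjusted p of 0.045. The call was lost with the gene length trend removed, with no filter on low counts and with the granulocyte precursor covariate, and in 11 of the 15 fits without a single library (it was kept without replicate 6, 7, 9 or 10). Under RvD6, and between the lipids, 0 of the 61 were called in either direction, beside 0% and 0.235% of all genes.

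Among the 24 other lysosomal enzymes, the extremes under RvD6si were Man2b2 (a mannosidase) at 1.01 ± 0.34 and Dpp7 (a dipeptidyl peptidase) at -0.85 ± 0.22, with edgeR adjusted p of 0.14 and 0.071. Under RvD6 they were Acp5 at 2.62 ± 0.72 and Scpep1 at -0.33 ± 0.20, with edgeR adjusted p of 0.16 and 0.50. In the list of 18 other membrane proteins the extremes under RvD6 were Laptm5, a protein of blood cell lysosomes, at 1.67 ± 0.36 and Laptm4b at -0.36 ± 0.16, with edgeR adjusted p of 0.097 and 0.34. The 11 genes of enzyme delivery had 8 log2 fold changes above 0 under RvD6si and 7 under RvD6, from -0.41 (Nagpa, which uncovers the mannose 6-phosphate tag) to 1.31 (Gga1, an adaptor of the sorting receptors) and from -0.43 (Gnptg) to 0.45 (Igf2r). Of 8 tested genes for the relatives of TFEB and their regulators, 6 under RvD6si and 8 under RvD6 were above 0. Fnip2, a regulator of the RagC and RagD GTPases, was the highest at 1.97 ± 0.84 and 1.67 ± 0.84, and neither passed, at edgeR adjusted p of 0.26 and 0.40.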

How the data were processed

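The authors aligned Smart-seq2 reads to GRCm38 with Rsubread and deposited raw read counts per gene, counted by featureCounts on GENCODE 22 exons with no option for strand or for reads overlapping several genes. The submitters' processing notes name Subread 1.6.5, and the file header names featureCounts 1.5.0-p1. Total counts per sample were 4125962 to 9903396, and no pair of libraries of the same group agreed within sampling noise. Symbols came from GENCODE 21 (99.7% of identifiers) and promoters from RefSeq. The members and gene lists were chosen with earlier results of these data known.

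Counts were tested with edgeR 4.0.16 (R 4.3.3): TMM scaling, filterByExpr (minimum count 10, total 15; 16567 genes kept), 1 quasi-likelihood fit to all 15 samples and 3 groups, and Benjamini-Hochberg adjustment over all genes tested. Normalized counts were counts divided by the DESeq2 size factor of the library, while CPM and RPKM used TMM-scaled library sizes. RPKM used the exonic length in the deposited table. Genes described by sample were those called in any comparison, those whose 5 treated and 5 vehicle samples did not overlap, and the 3 highest and 3 lowest log2 fold changes of each comparison. Pathway genes were named where called and otherwise as the extremes of a list. Alternatives were DESeq2 1.42.0, which the study's methods name, RLE scaling, other filters, pairs of groups, removal of a gene length trend and leaving out each sample, and, chosen after seeing the data, leaving out replicates 8, 9 and 15 and a granulocyte precursor covariate. The code was tested on simulated counts. The labels do not name the mouse of each TG or a batch. Because only the right TG was taken, the 5 TGs of a group would come from different mice. The p-values set the difference between groups against the spread between these samples.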

Additional observations from a re-analysis of the deposited data

Results flagged for a closer look

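Ctsk differed between the lipids in the direct test of their effects against the same vehicle samples: the effect of RvD6si minus that of RvD6 was -1.21 on the log2 scale. Among the 36 groups of 5 normalized counts of the 12 genes described by sample, 0 held a sample farther from the rest than Dixon's 95% limit, where chance flags about 1 group in 20.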

How the results depend on the processing

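The direction of each of the 12 genes named by sample was kept wherever it was called. The median log2 fold change of the members shifted by less than the spread between samples (0.13) under every alternative run. That limit is larger than the medians themselves, so it does not fix their sign. Leaving out single libraries gave medians of -0.15 to 0.00073 for RvD6si, -0.092 to -0.018 for RvD6 and -0.046 to 0.088 between the lipids. The levels with RLE scaling stayed within the spread between samples. The counts of calls changed. DESeq2 called 909 genes, 2 members and 6 pathway genes for RvD6si against vehicle, 367, 1 and 2 for RvD6 against vehicle, and 185, 2 and 1 between the lipids, where edgeR called 111, 1 and 1, then 0, 0 and 0, then 39, 1 and 0. For RvD6si against vehicle, at least 10 counts in every sample gave 315 genes and 2 pathway genes, the length trend removed 63 and 0, the marker covariate 41 genes, 0 members and 0 pathway genes, and no filter 0, only the 2 groups 2 and replicates 8, 9 and 15 left out 2 pathway genes. For RvD6 against vehicle, only the 2 groups gave 38 genes, no filter 56, at least 10 counts 24, replicates 8, 9 and 15 left out 36 and the covariate 1. Each of these apart from the covariate called 1 pathway gene (Laptm5), and at least 10 counts and the 3 libraries left out called 1 member (Ctsk). Between the lipids these settings gave 17, 59, 23, 94 and 1 genes, the first and the last 0 members, and the 3 libraries left out 2 pathway genes. Leaving out each library in turn gave 0 to 229 genes, 0 to 2 members and 0 to 2 pathway genes for RvD6si, 0 to 51, 0 to 1 and 0 to 1 for RvD6, and 2 to 156, 0 to 1 and 0 to 1 between the lipids. The highest counts of genes came without replicate 9 for RvD6si and without replicate 15 for RvD6 and between the lipids, and the 2 members (Cd63 and Lgmn) for RvD6si without replicate 12. The longer promoter motif was in 5 members rather than 14. In edgeR at an unadjusted p under 0.05, 1264 genes were higher and 992 lower in RvD6 than in vehicle. Fewer genes tested or samples fitted change the adjustment, and the cause of each lost call was otherwise not tested. No paired analysis was possible because the groups share no replicate numbers. The counts of Tfeb, Arsb, Sgsh and Manba per library are low, and whether depth or the spread between TGs limits them was not tested.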
